A study of Mus musculus with 8 samples.

Results

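Lung RNA of 8 mouse pups was searched for a response of hypoxia and glycolysis genes to an induced transgene for fibroblast growth factor 18 (FGF18). The gene set was a list of 36 symbols, chosen by name from the hypoxia response and from glycolysis and not by a measured value. A probe set, the group of probes that Affymetrix arrays use for a transcript, counted for a gene only if the annotation gave it that symbol alone. By this rule 33 of the 36 genes were measured, out of 18193 genes with a probe set in all. Ero1l was found under its current symbol Ero1a. Bnip3l shares its probe sets with another symbol, and Gpi1 and Eno1 were not matched in the annotation used, so these genes were not analysed here. All 33 passed the filter on low values, a limit on the mean over all 8 arrays that left 12856 genes to test. For 2 of them the mean of 1 group lay under the limit of log2 6.51, Fbp1 in controls (6.23, against 6.87 in cases) and Eno2 in cases (6.50, against 6.67 in controls), so these passed through the group where they were high.

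The arrays came from 4 controls (D02, D40, D50 and D58) and 4 cases (D04, D34, D48 and D52) of the FVB/N strain, 1 array per pup, and so few arrays limit the precision. The labels give all 8 pups the same genotype entry, SP-C-rtTA and (teto)7-FGF18, an inducible transgene aimed at the lung, and the series text describes pairs of single and double transgenic pups out of 4 litters, chosen on transgene induction. Which transgene a control carried, the inducing agent, the age and the litter of each pup are not stated in the labels. The surfactant protein C (SP-C) promoter is active in the distal lung epithelium, so the transgene is driven in that epithelium. Markers of lung were present: 9 of 10 alveolar type 2 cell markers were tested, with a summed intensity of 64830 to 71505 in controls and 58720 to 73660 in cases. Fgf18 read 7.05 to 7.76 on the log2 scale in controls and 10.82, 12.09 and 9.82 in D04, D34 and D48, but 7.66 in the library labelled Case D52, below control D40. The other controls read 7.05 to 7.11, below that library. The Fgf18 difference was 2.85 log2 (limma adjusted p = 0.736), and 3.66 if that library is left out. As the library was singled out by its Fgf18 value, the second difference is no test of Fgf18. For that pup Fgf18, within the control range through D40 alone, does not bear out the label. Counts of members, and the differences of named genes whose unadjusted p crosses 0.05 without that library, are therefore given both ways. By Xist and Y-linked genes, which the labels do not check, D02, D04 and D34 were read as females and the 5 remaining pups as males.

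Cells sense oxygen through prolyl hydroxylases (EGLN proteins), which mark the alpha subunits of hypoxia-inducible factors (HIF) for breakdown while oxygen is at hand. When oxygen falls, HIF accumulates and switches on genes for glucose uptake, glycolysis, mitophagy and blood vessel growth. HIF is controlled mostly at the level of its protein, so its activity is usually read from target genes rather than from Hif1a RNA. Lung is rich in HIF-2 alpha (Epas1), which endothelium and alveolar type 2 cells express.

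The question was whether a rise of adrenomedullin went with other hypoxia targets. Adrenomedullin (Adm), a vasodilator peptide and a well known HIF target, is not a member of the set and was known from earlier results of these data to be higher in cases. Adm read 7.53, 6.81, 6.91 and 7.30 on the log2 scale in the controls (D02, D40, D50, D58), and 8.99, 10.00, 9.32 and 7.45 in cases D04, D34, D48 and D52. Thus 3 case pups lay above all controls, at 3.60, 7.25 and 4.54 times the control mean, and D52 lay within the control range. Over all 8 pups the difference was 1.80 log2 (95% interval 0.81 to 2.79, limma adjusted p = 0.736, two-sided exact permutation p = 0.0571 over 70 arrangements, of which the smallest possible is 0.0286). The difference was 2.30 log2 once the library labelled Case D52 was left out (limma adjusted p = 0.0247). That library was singled out by its Fgf18 and also had the lowest Adm of the cases, so this p is no independent test. The second Adm probe set gave 1.58 log2 over all pups. Summed markers of fibroblasts, of club cells and of heart and skeletal muscle were low in the same 3 pups. Those of macrophages were not, at 6503 (D04), 7182 (D34) and 6394 (D48) against 5801 to 7154 in controls. Nor were those of alveolar type 2 cells, at 69424, 73660 and 65342 against 64830 to 71505. In the group difference, 5 of 9 tested macrophage markers and 4 of 9 tested type 2 cell markers lay below 0. The summed intensity of 8 fibroblast markers reached 43016 (D04), 43146 (D34) and 44449 (D48), 51550 in D52 and 50125 to 56804 in controls. Of these 8, 5 were lower at an unadjusted p under 0.05 in limma, and 2 lay above 0. For 8 club cell markers the sum was 45755, 26752 and 41137, 58848 in D52 and 53291 to 63056 in controls, with 6 of 8 lower at that p. For 11 tested heart and skeletal muscle markers it was 12982, 5493 and 14425, 25243 in D52 and 19372 to 26549 in controls. Of these 11, 3 were lower at that p and 1 lay above 0. The part of these cells in the Adm values was not tested.

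No hypoxia or glycolysis gene differed between the groups past the threshold. Of 33 members, 0 passed the limma test over all genes (Benjamini-Hochberg adjusted p from 0.736 to 0.983), where 0.00778% of all genes did, which is 1 gene, the lipid transporter gene Abca3. At an unadjusted p under 0.05 there was 1 member, the lower Car9, against 6.29% of all genes (4.22% lower). In 1 member the groups did not overlap, again Car9, against 3.96% of all genes (2.57% lower). Differences (case minus control, log2) ran from -0.20 to 0.65, with a median of -0.03 beside -0.01 over all genes, and 14 members (42.4%) lay above 0 and 19 below, beside 45.0% of all genes above 0. With each array centred on its median the split turned to 18 above (54.5%) and 15 below, beside 8095 of all 12856 genes above 0. Without the library labelled Case D52, 0 members passed (0.0467% of all genes did), 2 were lower at an unadjusted p under 0.05, Epas1 and Pfkp (8.13% of all genes were), and 3 were lower without overlap, these 2 and Car9 (7.97%). The limma adjusted p of the members then ran from 0.335 to 0.988, and their differences from -0.26 to 0.43. In that fit 12 members lay above 0 and 21 below, beside 45.1% of all genes above 0. The 95% interval lay between -0.5 and 0.5 for 30 of the 33 members and between -1 and 1 for 32. For 32 members, all except the gluconeogenic gene Fbp1, the upper bound lay below the lower bound of Adm. As Adm was known beforehand to be higher in these data, this is a description and no test. A probe set summary can understate a change, so these bounds apply to the array's scale. In bulk lung, fewer cells of a type and less RNA per cell cannot be told apart.

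**Figure D1:**
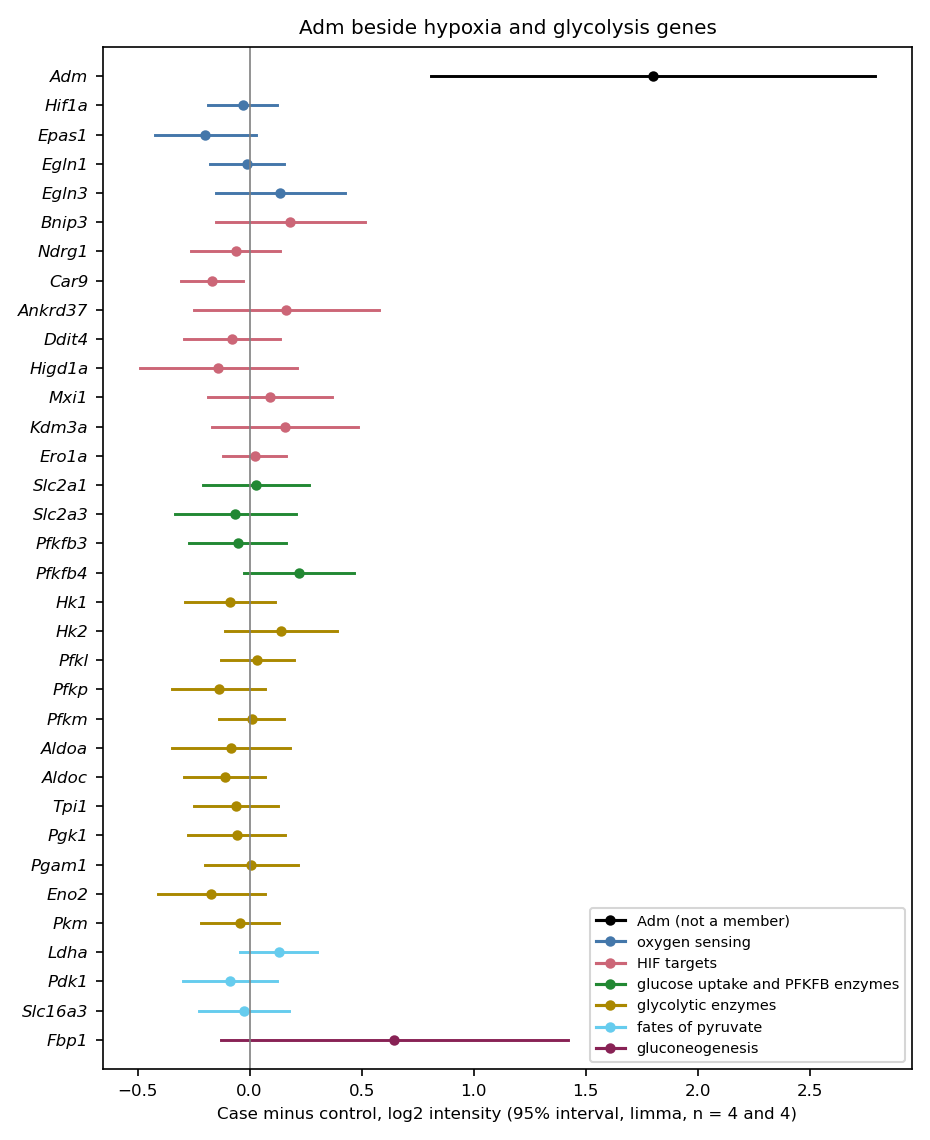
Difference between cases and controls (log2 intensity, horizontal axis) with its 95% interval from limma, 4 pups a group, for Adm and the 33 measured members, coloured by role. Adm stands at 1.80, while members other than Fbp1 lie between -0.20 and 0.22.

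To show which of these genes carry the letters that HIF reads next to their start, the 250 bases before the transcription start were taken from RefSeq (build GRCm38.p6). The core of the hypoxia response element was searched as ACGTG or GCGTG on both strands, so CACGT and CACGC were matched too. ACGTG also lies within CACGTG, the E-box of MYC and clock proteins, where it matches on both strands. Of the members, 30 had an entry in the table, and 27 of these (90.0%) held a match in at least 1 window, beside 59.9% of the 10365 tested genes with an entry. Counted by window instead, 34 of 45 windows of these members (75.6%) held a match, beside 38.6% of all 32851 windows of the table. This background is unlike the first, as it also takes in genes that were not tested. Counted by gene it held a match in 41.5% of 27025 genes. Counted by gene, the share was 13 of 14 among members with a difference above 0 and 14 of 16 among those below 0. Tpi1, Eno2 and Fbp1 held none of these letters in their windows. A match is a description of the letters and no evidence of binding. Shown are Adm, which the question turns on, Bnip3 and Ankrd37, which were high in 1 case pup, and Slc2a1, Ldha and Pgk1, long known HIF targets. Each is given 5′ to 3′ along the gene, ending at the base before the start, with matches in capitals. Adm lies at chr7:110627407-110627656 on the plus strand, Bnip3 at chr7:138909507-138909756 and Ankrd37 at chr8:45999851-46000100 on the minus strand, and Slc2a1 at chr4:119108495-119108744, Ldha at chr7:46845554-46845803 and Pgk1 at chrX:106186850-106187099 on the plus strand. Ldha has 2 windows in the table, of which the one with more matches is shown.
Adm: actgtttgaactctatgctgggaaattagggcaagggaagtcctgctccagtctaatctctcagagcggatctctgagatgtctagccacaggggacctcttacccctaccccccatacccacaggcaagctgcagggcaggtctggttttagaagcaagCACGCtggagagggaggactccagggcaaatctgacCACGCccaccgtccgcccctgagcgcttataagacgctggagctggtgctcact
Bnip3: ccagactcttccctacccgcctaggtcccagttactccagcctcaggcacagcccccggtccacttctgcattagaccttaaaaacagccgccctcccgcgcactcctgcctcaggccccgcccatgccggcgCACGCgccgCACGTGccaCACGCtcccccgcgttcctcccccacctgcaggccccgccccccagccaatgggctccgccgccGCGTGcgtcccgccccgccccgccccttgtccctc
Ankrd37: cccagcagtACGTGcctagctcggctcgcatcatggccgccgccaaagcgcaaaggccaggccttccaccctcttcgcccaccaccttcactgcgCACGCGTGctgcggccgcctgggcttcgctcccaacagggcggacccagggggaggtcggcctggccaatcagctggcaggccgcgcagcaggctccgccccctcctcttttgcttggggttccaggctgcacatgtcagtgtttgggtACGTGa
Slc2a1: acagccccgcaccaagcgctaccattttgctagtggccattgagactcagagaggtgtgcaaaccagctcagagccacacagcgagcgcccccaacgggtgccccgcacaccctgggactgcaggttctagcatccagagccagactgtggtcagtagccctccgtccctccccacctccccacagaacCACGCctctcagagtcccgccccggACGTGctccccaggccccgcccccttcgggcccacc
Ldha: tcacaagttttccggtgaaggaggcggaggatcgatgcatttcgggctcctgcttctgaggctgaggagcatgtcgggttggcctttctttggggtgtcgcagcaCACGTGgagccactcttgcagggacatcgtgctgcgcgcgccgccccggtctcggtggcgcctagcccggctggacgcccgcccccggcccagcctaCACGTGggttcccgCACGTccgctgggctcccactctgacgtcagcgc
Pgk1: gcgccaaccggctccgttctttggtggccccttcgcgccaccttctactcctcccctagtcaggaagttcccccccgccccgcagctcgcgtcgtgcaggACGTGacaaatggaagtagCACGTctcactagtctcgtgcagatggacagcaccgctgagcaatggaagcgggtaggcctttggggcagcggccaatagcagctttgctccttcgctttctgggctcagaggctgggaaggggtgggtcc
Adm and Slc2a1 each hold 2 matches, Pgk1 2, Ankrd37 4, and Bnip3 and Ldha 5 each. Each CACGTG in Bnip3 and Ldha counts as 2 of these matches, as it is read on both strands.

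None of the 4 genes of the oxygen sensor differed past the threshold, and their median difference was -0.02 log2. Hif1a encodes the HIF-1 alpha subunit and read 11.11, 11.03, 11.10 and 11.14 in the controls (D02, D40, D50, D58), and 11.03, 10.92, 11.13 and 11.16 in cases D04, D34, D48 and D52. Epas1, the HIF-2 alpha subunit, read 13.25, 13.37, 13.19 and 13.23 in controls and 13.17, 12.77, 13.06 and 13.24 in cases. Cases D04, D34 and D48 lay below all controls for Epas1, D34 lowest, while D52 lay within their range. The difference was -0.20 log2 (SE 0.10, limma adjusted p = 0.736), and -0.26 without the library labelled Case D52 (adjusted p = 0.347). The second Epas1 probe set gave -0.31. Vascular endothelium markers were low in D34 too: 8 of 10 lay below all controls there, with a summed intensity of 27487 in D34, 32169 to 33732 in the other cases and 32237 to 35054 in controls, and their part in the Epas1 values was not tested. Egln1, the main HIF prolyl hydroxylase, differed by -0.01. Egln3, a hydroxylase that is itself a HIF target, read 7.70, 7.44, 7.55 and 7.87 in controls and 7.54, 7.72, 8.11 and 7.74 in cases. Only D48 lay above the controls for Egln3, and its second probe set, at 7.68 in D48, did not.

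The HIF targets outside glucose metabolism included several with a high value in a single pup, D34. There were 9 measured, 5 above 0 and 4 below, with a median difference of 0.02 log2. Bnip3, a receptor for mitophagy, read 9.34, 9.28, 9.30 and 9.34 in the controls (D02, D40, D50, D58), and 9.35, 10.03, 9.30 and 9.31 in cases D04, D34, D48 and D52. Ankrd37, an ankyrin repeat gene induced by HIF-1, read 7.42, 7.19, 7.34 and 7.38 in controls and 7.41, 8.14, 7.17 and 7.26 in cases. In both genes the controls and 3 of the cases lay close together and D34 stood far above them, at 1.64 times the control mean for Bnip3 and 1.75 times for Ankrd37. Kdm3a, a histone H3 lysine 9 demethylase, and Mxi1, a MYC antagonist, showed the same pup on top, at 10.17 and 9.99 against 9.42 to 9.62 and 9.41 to 9.69 in the other 7 pups. None of these differed between groups past the threshold: the log2 difference was 0.18 for Bnip3, 0.16 for Ankrd37, 0.16 for Kdm3a and 0.09 for Mxi1 (limma adjusted p from 0.781 to 0.856). Without D34 it was 0.01, -0.05, -0.01 and -0.04, and 0.24, 0.24, 0.24 and 0.15 without the library labelled Case D52 (adjusted p from 0.521 to 0.637).

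The remaining targets of this kind did not stand out upward in D34. Ndrg1, a stress and differentiation gene, read 8.48, 8.36, 8.34 and 8.49 in the controls (D02, D40, D50, D58), and 8.39, 8.49, 8.11 and 8.43 in cases D04, D34, D48 and D52, so D48 was lowest and the groups overlapped. Higd1a, a mitochondrial protein of hypoxia, was lower in D34, at 9.67 against 10.22 to 10.47 in the other pups, while its other probe sets read 8.56 and 7.72 there, below the controls (8.73 to 8.94 and 7.82 to 8.06) by less. Ddit4, an inhibitor of mTORC1, and Ero1a, an oxidase of the endoplasmic reticulum, differed by -0.08 and 0.02. Car9, a carbonic anhydrase often used as a marker of hypoxic tissue, read 6.69, 6.86, 6.75 and 6.79 in controls and 6.64, 6.57, 6.65 and 6.55 in cases. All 4 cases lay below all 4 controls, by 0.17 log2 on average (SE 0.06, limma adjusted p = 0.736), and by 0.15 without the library labelled Case D52 (unadjusted p = 0.0588 in limma). Car9 lay near the lower limit of log2 6.51, and its groups overlapped after quantile normalization and after median centring. Under the stricter filter it was not tested.

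**Figure D2:**
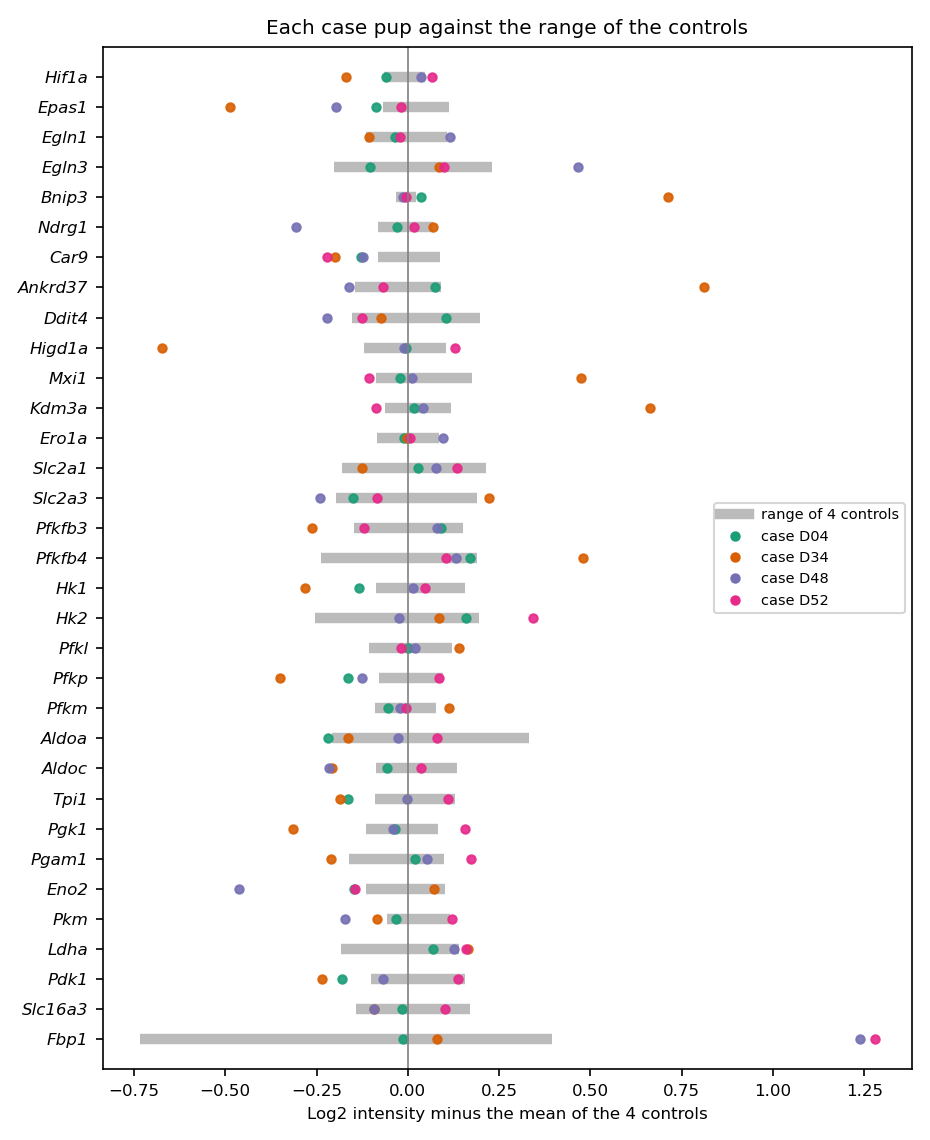
Log2 intensity of each case pup minus the mean of the 4 controls (horizontal axis) for the 33 members; grey bars give the range of the 4 controls. Among others, D34 stands above the bar for Bnip3, Ankrd37, Kdm3a, Mxi1 and Pfkfb4 and below it for Higd1a, Epas1, Pfkp and Pgk1. D48 and D52 stand above it for Fbp1.

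No gene of glucose uptake or glycolysis differed past the threshold. Slc2a1, the glucose transporter GLUT1, read 8.07, 7.75, 7.74 and 8.14 in the controls (D02, D40, D50, D58), and 7.95, 7.80, 8.001 and 8.06 in cases D04, D34, D48 and D52, all cases within the control range. The log2 difference was 0.03 (95% interval -0.21 to 0.27). Slc2a3 (GLUT3) differed by -0.06, and Pfkfb3 and Pfkfb4, bifunctional enzymes that set the level of the phosphofructokinase activator fructose 2,6-bisphosphate, by -0.05 and 0.22. Pfkfb4 reached 8.77 in D34 and lay between 8.05 and 8.48 in the other pups. Of 12 glycolytic enzyme genes measured, 4 lay above 0 and 8 below, with a median of -0.06 log2 and a range from -0.17 (Eno2) to 0.14 (Hk2). Pgk1, phosphoglycerate kinase, read 11.18, 11.04, 11.15 and 11.23 in controls and 11.11, 10.83, 11.11 and 11.31 in cases. D34 was lowest and D52 highest, and the groups overlapped. The hexokinase Hk1, the phosphofructokinases Pfkl, Pfkm and Pfkp, the aldolases Aldoa and Aldoc, Tpi1, Pgam1 and the pyruvate kinase Pkm differed by -0.14 to 0.04. Pfkp, at -0.14, differed by -0.21 without the library labelled Case D52 (limma adjusted p = 0.335). Over all pups none of the 12 passed the limma test, at either the adjusted threshold or an unadjusted p under 0.05.

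The same held for the 3 genes for the fates of pyruvate. Ldha, the lactate dehydrogenase subunit that HIF induces, read 12.29, 12.05, 12.21 and 12.37 in the controls (D02, D40, D50, D58), and 12.30, 12.40, 12.36 and 12.39 in cases D04, D34, D48 and D52. The cases lay in the upper part of the control range or just above it, with a difference of 0.13 log2 (95% interval -0.04 to 0.30, limma adjusted p = 0.736). Pdk1, a kinase that inhibits pyruvate dehydrogenase, differed by -0.09, and Slc16a3, the lactate exporter MCT4, by -0.03.

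**Figure D3:**
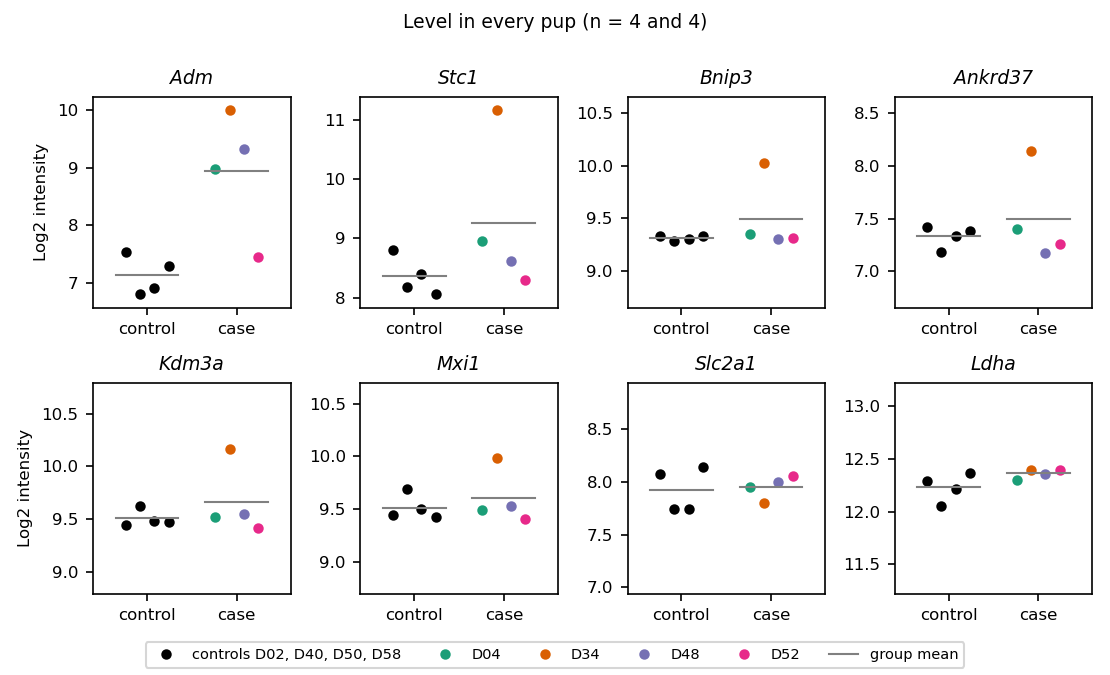
Log2 intensity (vertical axes, each spanning at least 2 log2) in every control and case pup for Adm, Stc1, 4 targets high in D34, and Slc2a1 and Ldha; grey lines are group means of 4 pups. Adm is high in D04, D34 and D48, Stc1, Bnip3, Ankrd37, Kdm3a and Mxi1 stand out in D34, and Slc2a1 overlaps between groups.

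Fbp1, the fructose bisphosphatase of gluconeogenesis, was the member with the widest spread. It read 5.49, 6.26, 6.62 and 6.54 in the controls (D02, D40, D50, D58), and 6.22, 6.31, 7.47 and 7.51 in cases D04, D34, D48 and D52. D48 and D52 lay above all controls and D04 and D34 within their range. D52 was as high as D48 although its Fgf18 lay within the control range. Over all pups the difference was 0.65 log2 (SE 0.35, 95% interval -0.13 to 1.42, limma adjusted p = 0.736), and 0.43 without the library labelled Case D52. The values also differed with the sex read from the arrays. In the pups read as male, 3 controls averaged 6.47 and 2 cases 7.49. In those read as female, the 1 control read 5.49 and the 2 cases averaged 6.26. With sex as a covariate the difference was 0.93 log2 (SE 0.10, limma adjusted p = 0.0264), and Fbp1 and Abca3 were the 2 genes of 12856 past the threshold in that fit, 0.0156% of all. As Fbp1 passed the filter through the cases, the fit was repeated with no filter on the 18193 genes, where its adjusted p was 0.0429. At an unadjusted p under 0.05 the members in that fit were Fbp1 and Car9, beside 4.64% of all genes. This call rests on few pups. With 1 array left out in turn (this and the fit with no filter were chosen after seeing the data), 4 of 8 fits kept it and the difference stayed between 0.85 and 1.01, with adjusted p = 0.0665 without control D02, 0.147 without D58, 0.247 without case D48 and 0.0711 without D52.

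**Figure D4:**
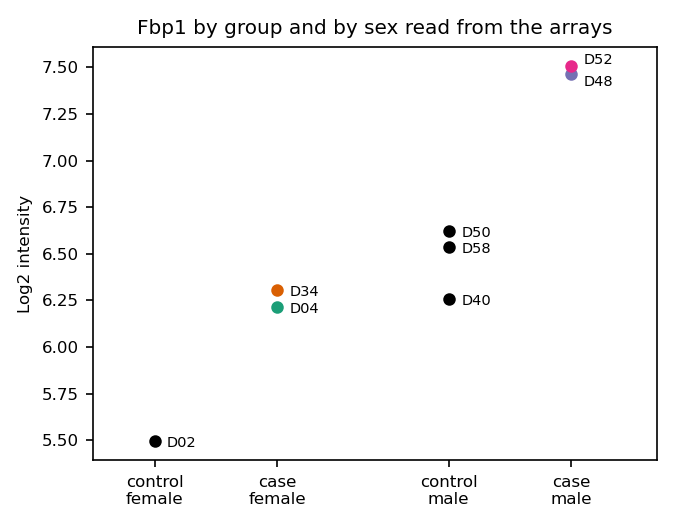
Log2 intensity of Fbp1 (vertical axis) in each pup by group and by the sex read from Xist and Y-linked genes. Case pups lie above the control pups of the same sex, 6.22 and 6.31 against 5.49 in females and 7.47 and 7.51 against 6.26 to 6.62 in males.

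Each case pup was then set against the range of the 4 controls. In D34, 10 members lay above all controls, which is 30.3% of them beside 26.0% of all genes, and 13 lay below, or 39.4% beside 38.4%. The members farthest above the control mean there were Ankrd37 (0.81 log2), Bnip3 (0.71), Kdm3a (0.66), Pfkfb4 (0.48) and Mxi1 (0.47). Those farthest below were Higd1a (-0.67), Epas1 (-0.49), Pfkp (-0.35) and Pgk1 (-0.315). In D04, 1 member lay above (Bnip3) and 8 below, beside 17.3% and 23.0% of all genes. In D48 there were 4 above, led by Fbp1 and Egln3, and 10 below, beside 32.1% and 26.3%. In the library labelled Case D52 there were 8 above, led by Fbp1 and Hk2, and 4 below, beside 16.0% and 18.7%. Without D34, 3 members had an unadjusted p under 0.05 (Car9 and Eno2 lower, Fbp1 higher), beside 4.57% of all genes. One pup gives no replicate and no test. D34 had the highest Fgf18 and Adm of all pups. Its summed markers of alveolar type 2 cells (73660) and macrophages (7182) were the highest too, and those of several other cell types the lowest. Even so, 2 of 9 tested type 2 cell markers and 4 of 9 tested macrophage markers lay below all controls in D34. There, 8 of 8 club cell markers lay below all controls (summed intensity 26752 in D34, 41137 to 58848 in the other cases and 53291 to 63056 in controls). So did 8 of 8 alveolar type 1 cell markers (24721 in D34, 31947 to 33328 and 32462 to 34111) and 10 of 11 tested heart and skeletal muscle markers (5493 in D34, 12982 to 25243 and 19372 to 26549). Their part in the values of D34 was not tested.

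Beyond the members, 67 other genes of oxygen sensing, HIF response and glucose metabolism were listed, and 58 of these were tested. None passed over all genes by limma (smallest adjusted p = 0.736). At an unadjusted p under 0.05, 2 were higher (Adm and Ppp1r3c) and 3 lower (Slc2a12, Slc16a7 and Bpgm), beside 2.08% and 4.22% of all genes. Without the library labelled Case D52, Adm passed. In that fit 4 of the 58 were higher at an unadjusted p under 0.05 in limma, Adm among them, beside 4.57% of all genes. At that p 13 of the 58 were lower, a larger share than the 8.13% of all genes. Both counts of higher genes include Adm, which was known beforehand to be higher. The median difference of the 58 was -0.03 log2, with 22 above 0 and 36 below.

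Among the 28 other HIF targets tested, Adm and Ppp1r3c were those with the smallest p. Ppp1r3c, a glycogen-targeting subunit of protein phosphatase 1, read 11.49, 11.52, 11.61 and 11.51 in the controls (D02, D40, D50, D58), and 11.92, 12.30, 12.15 and 11.52 in cases D04, D34, D48 and D52. As with Adm, 3 cases lay above all controls and D52 at their level. The difference was 0.44 log2 (SE 0.14, limma adjusted p = 0.736), and 0.59 without the library labelled Case D52 (adjusted p = 0.0776). The second Ppp1r3c probe set gave 0.53. Stc1, the hormone stanniocalcin 1, read 8.80, 8.19, 8.41 and 8.06 in controls and 8.95, 11.16, 8.62 and 8.29 in cases. D34 stood at 6.92 times the control mean for Stc1, and D04 lay just above the controls. Its difference was 0.89 log2 (SE 0.52, limma adjusted p = 0.736), 0.25 without D34, and, leaving out the library labelled Case D52, 1.21 (adjusted p = 0.381). Vegfa, the vascular growth factor and a standard HIF target, read 11.13, 11.38, 11.17 and 11.02 in controls and 10.99, 10.82, 10.94 and 11.18 in cases. Its difference was -0.19 log2 (SE 0.10, limma adjusted p = 0.736), and -0.26 without the library labelled Case D52 (adjusted p = 0.312), opposite in sign to that of Adm. The other Vegfa probe set gave 0.05. The collagen prolyl hydroxylase P4ha2 and the prostaglandin synthase Ptgs2 differed by -0.29 and -0.27, and by -0.38 and -0.36 without the library labelled Case D52 (limma adjusted p = 0.303 and 0.322). For Ptgs2 the case mean, 6.49, lay under the filter's limit.

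None of the 9 other oxygen sensing genes passed the threshold, with differences from -0.05 to 0.15 log2. Vhl, part of the ubiquitin ligase that destroys HIF, differed by 0.11, and its groups did not overlap, with a highest control of 9.15 and a lowest case of 9.16 (1.38% of all genes were higher without overlap). In the second Vhl probe set the groups overlapped and the difference was 0.01. Arnt, the HIF partner subunit, differed by -0.05 and its relative Arnt2 by 0.15, Egln2 by 0.01, the HIF asparaginyl hydroxylase Hif1an by -0.03 and the coactivator Ep300 by -0.02.

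Among the 21 other glucose metabolism genes tested, 6 lay above 0 and 15 below, with a median of -0.04 log2. The glucose transporter Slc2a12 was lower in all 4 cases, 6.73 to 6.83 against 6.97 to 7.05, and the monocarboxylate transporter Slc16a7 too, 6.45 to 6.52 against 6.52 to 6.80, where the nearest pups were equal to 2 decimals. Both missed the threshold (limma adjusted p = 0.736) and passed it with array weights, at -0.28 and -0.31 (limma adjusted p = 0.0446 for both). The case mean of Slc16a7, 6.48, lay under the filter's limit, so it passed the filter through the controls. With array weights and no filter, an alternative chosen after seeing the data, neither passed (limma adjusted p = 0.0863 for Slc2a12 and 0.0868 for Slc16a7). Bpgm, the enzyme that makes 2,3-bisphosphoglycerate in red blood cells, differed by -0.23. All 5 tested red blood cell markers, of 11 listed, were below 0 as well, with a summed intensity of 2730 to 3582 in cases and 3564 to 5537 in controls, and their part in Bpgm was not tested. The muscle isoforms of glycolysis, Pgam2 and Eno3, were chosen after their values were seen. Pgam2 read 8.71, 8.79, 8.78 and 9.27 in controls and 8.06, 7.03, 8.43 and 9.05 in cases D04, D34, D48 and D52, and Eno3 9.16, 9.19, 9.06 and 9.58 and 8.60, 7.90, 8.74 and 9.45. Their differences were -0.74 and -0.58 log2, and -1.05 and -0.84 without the library labelled Case D52 (limma adjusted p = 0.198 and 0.169). Both muscle isoforms were low in the same pups, D34 lowest, as the heart and skeletal muscle markers given above, and the part of muscle in these values was not tested. Fbp2, the muscle fructose bisphosphatase, went the other way, with 7.62 in D34 and 6.66 to 7.10 in the other pups, a difference of 0.29 log2, and 0.39 without the library labelled Case D52 (limma adjusted p = 0.339). The pentose phosphate gene Pgd and the carboxykinase Pck2 differed by 0.13 and 0.11.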

How the data were processed

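Total lung RNA was labelled and put on 1 array for each pup with an Affymetrix IVT kit, as the labels' protocols say. The authors deposited linear probe set intensities (45101 probe sets). Of their processing, the submitters' notes name only affy, an R package. Not given in the sources used here is how probes were summarised and normalized. The deposited table also holds a log2 ratio of case D04 over control D02 from the authors, which entered no test. It may mark these pups as 1 of the study's pairs.

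Each intensity was log2 transformed and not scaled again. Control probe sets (64) and those whose mean lay under the 40th percentile (log2 6.51) were left out, and the brightest probe set of each gene was kept. Of 17 members with several probe sets above that limit, 7 differed in sign between them, by up to 0.20 log2 in all. The group test was limma's (3.58.1, R 4.3.3), by lmFit and eBayes, two-sided, with Benjamini-Hochberg adjustment over 12856 genes and a threshold of 0.05. The labels tie no pup to a litter and the ratio gives at most 1 pair, so no litter block was fitted. Sequences are RefSeq's for GRCm38.p6. The fit was tested on simulated data. Array medians ran from log2 7.02 to 7.12, and correlations between arrays from 0.983 to 0.996.

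Adm, the members and all lists were chosen with earlier results of these data known. By rule, the text names Adm, Fgf18, Vegfa and every member. It gives all 8 values for members with an unadjusted p under 0.05 or without overlap and for 10 fixed members, and names the 3 genes with the smallest p in each direction of each other list. Fbp1, Kdm3a, Mxi1, Pfkfb4, Higd1a, Pgam2 and Eno3 were described in more detail after their values were seen.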

Additional observations from a re-analysis of the deposited data

Results flagged for a closer look

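A sample far from the others of its group was found in 4 of 104 groups of 4 pups, over 52 genes; chance alone gives about 1 in 20. Bnip3 read 10.03 in case D34 against 9.30 to 9.35 in the other cases. Ero1a read 9.19 in case D48 against 9.09 to 9.10. Fgf18 read 7.76 in control D40 against 7.05 to 7.11 in the other controls, and Slc16a7 6.52 in control D40 against 6.77 to 6.80.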

How the results depend on the processing

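Under 16 alternatives (filter, normalization, probe set choice, moderation, array weights, sex as a covariate, each array left out in turn), 0 members passed the limma threshold in 15, and 1, Fbp1, passed with sex as a covariate, also with no filter (limma adjusted p = 0.0429); its control mean lay under the filter's limit. The 1 member at an unadjusted p under 0.05 became 0 with the 60th percentile filter and with quantile normalization, and 2 with median centring (Pfkfb4 and Ldha, higher), with array weights (Car9 and Eno2, lower) and with sex as a covariate (Car9 and Fbp1). Of all 12856 genes, 809 had such a limma p in the main fit and 753 with quantile normalization. There were 1091 with median centring, 2611 with array weights and 596 with sex as a covariate. The 60th percentile filter gave 528 of 9747 genes. The 1 member without overlap became 0 with the 60th percentile filter, quantile normalization and median centring. Over all genes, 509 of 12856 did not overlap in the main fit. The count was 332 of 9747 with that filter, 425 with quantile normalization and 745 with median centring. The 1 gene past the threshold became 0 with the mean of a gene's probe sets, 16 with array weights and 2 with sex as a covariate. With 1 array left out, there were 0 to 6 genes past the threshold (0 without D02, D40, D58, D04 or D48, and 6 without D52), 0 to 3 members at an unadjusted p under 0.05 (0 without D58 and 3 without D34), 1 to 3 members without overlap (3 without D52) and a median of -0.06 to 0.02 log2. Of all 12856 genes, 568 had such a limma p without D58 and 588 without D34, and 1759 did not overlap without D52. The difference of Adm ran from 1.45 (without D34) to 2.30 log2 (without D52). Its limma adjusted p ran from 0.0247 (without D52) to 0.920, with 0.0516 as the lowest of the rest. D52 was singled out by its Fgf18 and had the lowest Adm of the cases. Of 522 member values under alternatives, 41 changed sign, in 19 members, none of them past the threshold. The causes were not tested. No paired analysis was possible because only 1 possible pair can be read, D04 and D02, which the authors' ratio column sets against each other; the labels tie no other case to a control, and the groups share no replicate numbers. The arrays give no count of molecules, and differences near the filter's limit are the least certain.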
